A study of Homo sapiens with 12 samples.

Results

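The 10 genes of the EGR, NR4A and IER families (EGR1, EGR2, EGR3, EGR4, NR4A1, NR4A2, NR4A3, IER2, IER3 and IER5) were taken by name from the 26485 genes measured by RNA-seq in HT-29 cells, an established human colon adenocarcinoma line. All cells were treated for 8 h and fell into 4 groups of 3 libraries, 12 libraries in all. The TSZ+Nec-1s group received TNFα at 10 ng/ml, the Smac mimetic SM-164 at 50 nM, the pan-caspase inhibitor zVAD at 20 μM and Nec-1s, an inhibitor of the RIPK1 kinase, at 10 μM. The TSZ group received the same TNFα, SM-164 and zVAD without Nec-1s, a mixture used to induce necroptosis, a lytic form of cell death. The TNFα group received TNFα at 10 ng/ml alone, and the DMSO group the solvent alone. No group carries SM-164, zVAD or Nec-1s on its own, so the effect of SM-164 or of zVAD cannot be told apart from that of the mixture. TSZ+Nec-1s and TSZ differ in Nec-1s only, so the effect of Nec-1s can be seen within the mixture but not outside it. The comparisons ask how far these genes respond to the necroptotic mixture, how much of that response is left when RIPK1 is inhibited, and how much of it TNFα alone gives.

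Immediate early genes are transcribed within minutes of a stimulus, without new protein synthesis, from promoters held ready by factors such as SRF with its ternary complex partners, CREB and, for some of them, NF-κB. The kinases ERK, JNK and p38 act on these factors, and the resulting mRNAs are short-lived, so their level follows the recent activity of the cascade. The EGR proteins are zinc finger transcription factors that bind GC-rich sites, the NR4A proteins are orphan nuclear receptors that bind DNA as monomers or dimers, and the IER proteins are small regulators with no shared DNA-binding domain.

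The values are normalized reads, the whole reads recovered for each library from the deposited group means, divided by that library's size factor. The libraries hold an estimated 8855796 to 12720317 reads, and within each group they are lettered a, b and c as names only. The sources do not say whether the libraries within a group are from different cultures, and the p-values rest on the spread between them, which could be technical. The deviation of a library from its group's mean varied with GC content across genes, with Spearman's rho of -0.14 to 0.22 in the TSZ+Nec-1s libraries, -0.74 to 0.58 in the TSZ libraries, -0.59 to 0.47 in the TNFα libraries and -0.79 to 0.77 in the DMSO libraries. Results were recomputed without TSZ library a (-0.74), TNFα library a (-0.59) and DMSO library b (-0.79), which had the largest absolute rho in their groups, and that fit kept DMSO library c (0.77). Of 12 colon epithelium markers, all were above 0 in some group, though the authors' means of CDX1 and CDX2 were at most 0.74 and 6.77, and the 10 whose reads could be recovered summed to 24521 to 25034 normalized reads in TSZ+Nec-1s libraries, 40888 to 42672 in TSZ libraries, 22431 to 24722 in TNFα libraries and 21475 to 24639 in DMSO libraries. Of 10 leukocyte markers, 5 were at 0 in every group, among them PTPRC, CD3E and MS4A1, whereas LYZ had authors' means of 14922 to 19873. ITGAM averaged 218 normalized reads with TSZ+Nec-1s, 117 with TSZ, 134 with TNFα and 9.33 with DMSO, and was called higher than with DMSO in each treated group. CD14 averaged 30.6 with TSZ+Nec-1s, 12.6 with TSZ, 49.4 with TNFα and 80.8 with DMSO and was called lower than with DMSO with TSZ+Nec-1s and with TSZ. The 10 fibroblast and endothelium markers summed to 45.1 to 60.8 normalized reads in TSZ+Nec-1s libraries, 213 to 496 in TSZ libraries, 47.2 to 63.1 in TNFα libraries and 56.7 to 202 in DMSO libraries, with CDH5 and KDR at 0. Their sum was therefore highest in the TSZ libraries, as were the levels of EGR1, NR4A1, NR4A2, IER2, IER3 and IER5, and the part of other cell types in the results was not tested. In bulk RNA, fewer cells with a transcript and less transcript per cell cannot be told apart.

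TSZ raised each of the 6 members that were abundant enough to be tested. Of the 10 members, 6 passed the filter of a mean of at least 10 normalized reads over the 12 libraries, namely EGR1, NR4A1, NR4A2, IER2, IER3 and IER5, and the lowest level among these in any library was 34.2. All 6 had a higher level in TSZ than in DMSO libraries (adjusted p under 0.05), in a comparison in which 25.9% of the 11717 genes tested were called higher and 24.2% lower. All 6 were lower with TSZ+Nec-1s than with TSZ, against 22.6% of all genes called lower. With TSZ+Nec-1s, 5 of 6 were still higher than with DMSO, against 7.14% of all genes, and the exception was NR4A1. With TNFα alone, 4 of 6 were higher than with DMSO, against 3.12% of all genes, and the exceptions were NR4A1 and IER2. All 6 were higher with TSZ than with TNFα, against 22.7% of all genes. Between TSZ+Nec-1s and TNFα none of the 6 was called in either direction by limma with voom weights, against 1.35% of all genes, nor by limma without them, although 2 had an unadjusted p under 0.05 in the fit with weights. These comparisons share libraries and are therefore not independent of each other. Scaling to total reads in place of the size factors moved the median over all genes of the TSZ over DMSO log2 fold change to -0.43, with 1649 genes called higher and 5688 lower, against 3036 and 2835 with the size factors, and scaling to the upper quartile moved it to -0.19, with 2323 higher and 3913 lower. Neither scaling turned the direction of a call among the 6 genes. Scaled to total reads, the TSZ over DMSO log2 fold change was 3.94 for NR4A2, 3.19 for NR4A1 and 2.74 for IER3. For IER5, EGR1 and IER2 it was 1.49, 1.14 and 0.56. Each value lay below that gene's confidence interval with the size factors, so the intervals given below do not cover the choice of scaling. Scaled to the upper quartile, each value lay within its interval. With either scaling IER2 was no longer called for TSZ+Nec-1s over TSZ or for TSZ over TNFα, which left 5 of 6 genes called in each. Of all genes, 11.7% were called lower for TSZ+Nec-1s over TSZ scaled to total reads and 17.1% scaled to the upper quartile. For TSZ over TNFα, 12.6% and 17% were called higher. Scaled to total reads, EGR1 was not called for TNFα over DMSO, and IER3 was called for TSZ+Nec-1s over TNFα.

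**Figure D1:**
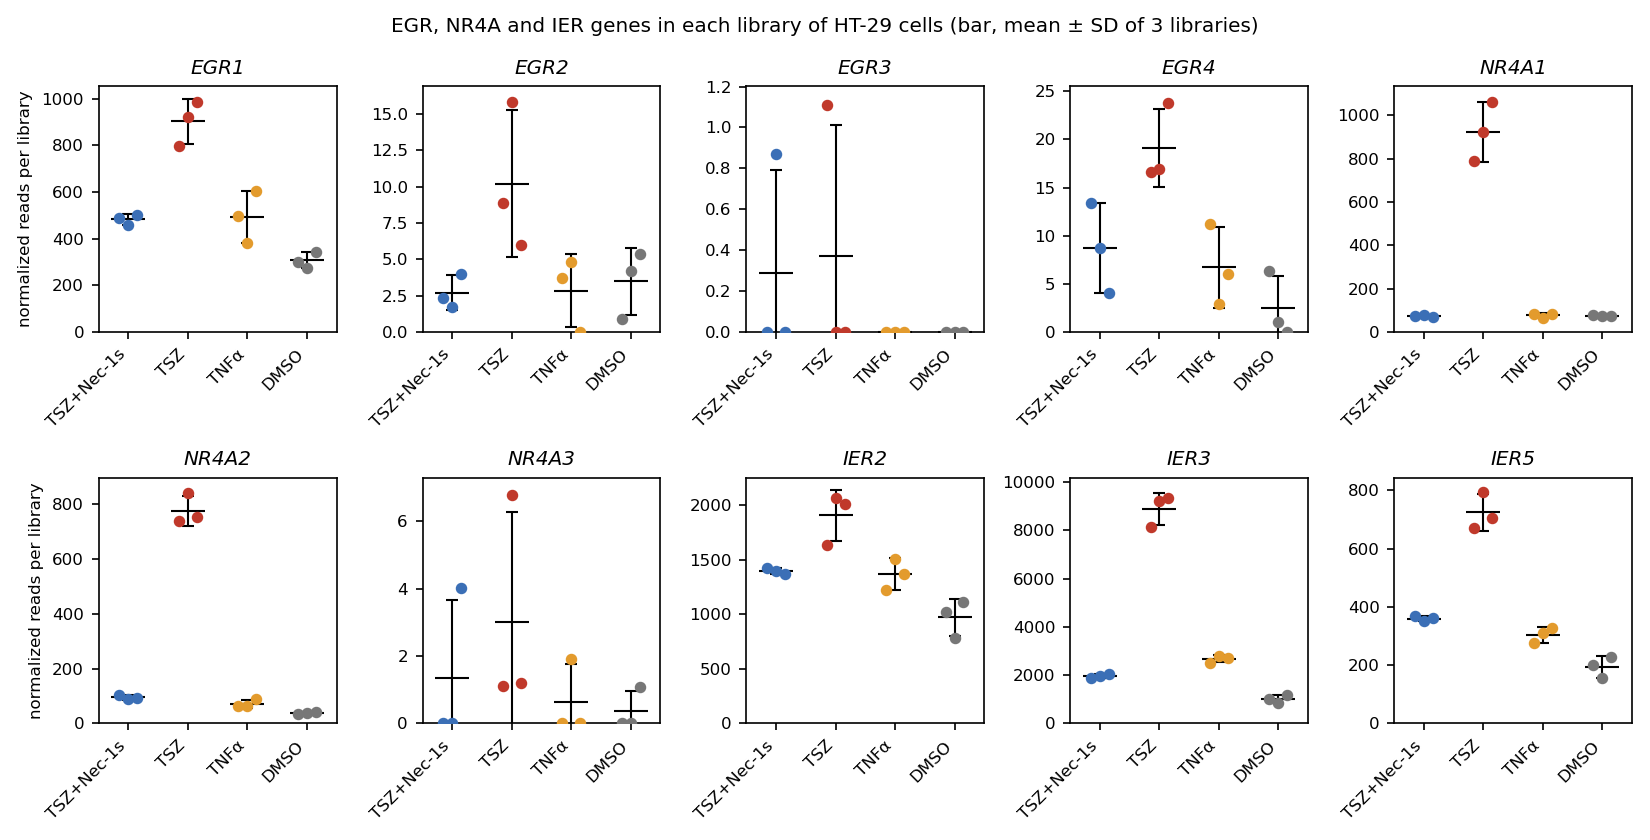
Normalized reads of each of the 10 genes (vertical axis, a separate scale from 0 per gene) in each library (points) of the TSZ+Nec-1s, TSZ, TNFα and DMSO groups, with the mean ± SD of 3 libraries in black, cut off at 0. The 3 TSZ libraries lie above all others for EGR1, NR4A1, NR4A2, IER2, IER3 and IER5, whereas EGR3 has 1 read in each of 2 libraries.

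EGR1, the best studied of the EGR factors, which controls growth and stress genes, is encoded on the plus strand of chromosome 5 (138465479 to 138469303, hg38), and its exons share no base with another annotated gene. Its level was 799, 922 and 985 normalized reads in the TSZ libraries, against 302, 275 and 344 in the DMSO libraries. The groups did not overlap, and the lowest TSZ library was library a. The log2 fold change over DMSO was 1.55 (SE 0.16, adjusted p = 4e-06), a 2.94-fold rise with a 95% interval of 2.31 to 3.72. With TSZ+Nec-1s the level fell to 489, 457 and 503, below every TSZ library (log2 fold change -0.90, SE 0.15, adjusted p = 0.00039). These values were still above those with DMSO, by 1.58-fold (adjusted p = 0.018). With TNFα alone EGR1 reached 495, 379 and 603 normalized reads, the widest spread of any group for this gene, where the coefficient of variation was 4.9% with TSZ+Nec-1s and 22.7% with TNFα. TNFα over DMSO was also 1.58-fold, with an adjusted p of 0.039. Its call was lost when any of 9 libraries was left out (DMSO a or b, TNFα a or c, TSZ b or c, TSZ+Nec-1s a, b or c), with log2 fold changes of 0.50 to 0.66 and adjusted p-values of 0.05 to 0.16. The call of TSZ+Nec-1s over DMSO was lost without DMSO library a or TSZ+Nec-1s library a or c, with log2 fold changes of 0.63 to 0.65 and adjusted p-values of 0.065 to 0.07.

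The other EGR genes were at or near the floor of these libraries. EGR4, a relative known mainly from neurons and immune cells (chromosome 2), had 15, 15 and 20 reads in the TSZ libraries, against 7, 1 and 0 in the DMSO libraries. The groups did not overlap, and the summed reads, 50 against 8, gave a ratio of 7.13 after scaling, with an exact 95% interval of 3.35 to 17.4 that covers counting error only. With TSZ+Nec-1s EGR4 had 17, 10 and 4 reads, a ratio to TSZ of 0.478 (interval 0.295 to 0.763), and with TNFα it had 12, 3 and 6 reads. EGR4 lay just under the filter, with a mean of 9.25 normalized reads, and without the filter it was the only one of the 4 low members to be called, with a log2 fold change of TSZ over DMSO of 3.42 (SE 0.71, adjusted p = 0.0018). EGR2, the factor of Schwann cell myelination (chromosome 10), had 8, 14 and 5 reads in the TSZ libraries, against 1, 4 and 5 in the DMSO libraries. Its summed reads gave a ratio of 3.08 (1.45 to 7.13), and without the filter the adjusted p was 0.13. EGR2 had 9 reads over the TSZ+Nec-1s group and 9 over the TNFα group. EGR3, which acts in muscle spindles and lymphocytes (chromosome 8), had 1 read in the TSZ+Nec-1s group, 1 in the TSZ group and none in the TNFα and DMSO groups, too few for any ratio. For 3 libraries against 3 the smallest exact permutation p is 0.1, two-sided, which the TSZ and DMSO groups reached for EGR2, EGR4 and NR4A3. For NR4A3, TSZ libraries a and c and DMSO library c had 1 read each. They were set apart only by the size factors, at 1.11, 1.19 and 1.07 normalized reads.

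NR4A1 and NR4A2 had the largest rises of the 6 tested genes. NR4A1, also called Nur77, is an orphan receptor that can act in the nucleus and at mitochondria and lies on the plus strand of chromosome 12 (52022832 to 52059507), where 10.3% of its exon bases are shared with the antisense gene NR4A1AS. Its level was 788, 924 and 1064 normalized reads in the TSZ libraries, against 79.2, 72.5 and 73.8 in the DMSO libraries. That is a 12.1-fold rise (9.54 to 15.4), with a log2 fold change of 3.60 (SE 0.16, adjusted p = 1.3e-09). With TSZ+Nec-1s NR4A1 had 72.0, 79.0 and 67.4 normalized reads, within or just below the range of DMSO. The log2 fold change of TSZ+Nec-1s over TSZ was -3.65 (SE 0.16, adjusted p = 1.8e-09), which ranked as the 54th lowest of the 11717 genes tested. Over DMSO it was -0.05, with a 95% interval of -0.47 to 0.37 and an adjusted p of 0.9. With TNFα alone the levels were 84.1, 65.4 and 82.1, and the log2 fold change over DMSO was 0.03, with an interval of -0.39 to 0.45 and an adjusted p of 0.97. NR4A1 was thus high in the 3 TSZ libraries only, and the intervals of the other treated groups reach at most 1.36-fold over DMSO.

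NR4A2, also called Nurr1, the receptor known for its role in dopamine neurons (minus strand of chromosome 2, 156324437 to 156342348), had the lowest DMSO level of the 6 tested genes. It had 739, 840 and 752 normalized reads in the TSZ libraries, against 34.2, 37.8 and 41.7 in the DMSO libraries. This was the largest TSZ over DMSO fold change among the tested members, 20.4-fold (15.7 to 26.4), with a log2 fold change of 4.35 (SE 0.17, adjusted p = 5e-10). With TSZ+Nec-1s the level was 103, 87.7 and 94.6 normalized reads, a fall of TSZ+Nec-1s against TSZ with a log2 fold change of -3.02 (SE 0.13, adjusted p = 2.2e-09). NR4A2 with TSZ+Nec-1s was still above its DMSO level, by 2.50-fold (1.87 to 3.34, adjusted p = 0.00049). With TNFα alone it had 64.5, 63.5 and 88.1 normalized reads, 1.87-fold over DMSO (1.39 to 2.53, adjusted p = 0.021). The TNFα and DMSO libraries did not overlap, but this call was lost without DMSO library a (log2 fold change 0.83, adjusted p = 0.11) or TNFα library c (0.76, adjusted p = 0.086). NR4A3, also called NOR-1 (chromosome 9), had 1, 6 and 1 reads in the TSZ libraries, against 0, 0 and 1 in the DMSO libraries. The summed 8 reads against 1 gave a ratio of 9.13 with an interval of 1.22 to 405, and without the filter the adjusted p was 0.14.

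The promoters are shown for EGR1 and EGR2, in which a CArG box was found, and for NR4A3, which held most CREB element cores, so that the sequences can be set beside the levels. Promoters from RefSeq (GRCh38.p14) were read for 7 of the 10 genes, and only these were searched. The promoter set held no entry for NR4A2 and IER3, and EGR3 was left out before the search. The 250 bases before each start were searched on both strands. The motifs were the CArG box of SRF, the core of the CREB element (TGACG), the full element (TGACGTCA) and the AP-1 site (TGANTCA). The κB site, the EGR site (GCGTGGGCG) and the NR4A monomer site (AAAGGTCA) were searched for as well. In the sequences, capitals mark CArG boxes and CREB element cores on either strand, and bases within the gene's own annotated exons are left out.
EGR1, chr5:138465334-138465478, plus strand: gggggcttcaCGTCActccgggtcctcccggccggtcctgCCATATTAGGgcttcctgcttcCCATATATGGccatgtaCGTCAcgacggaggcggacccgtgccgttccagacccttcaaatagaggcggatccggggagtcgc
EGR2, chr10:62816374-62816486, minus strand: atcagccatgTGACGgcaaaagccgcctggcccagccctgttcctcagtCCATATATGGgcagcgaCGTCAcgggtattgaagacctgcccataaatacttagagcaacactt
NR4A3, chr9:99821766-99821854, plus strand: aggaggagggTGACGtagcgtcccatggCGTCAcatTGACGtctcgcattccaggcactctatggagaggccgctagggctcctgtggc

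EGR1 held 2 CArG boxes, which begin 105 and 83 bases before the start, and 2 cores. EGR2 held 1 CArG box and 2 cores before the last of its 3 annotated starts and none before the other starts. Over all 35114 promoters of this length, 1.16% held a CArG box and 21.2% a core. NR4A3 held 4 cores, of which the 3 that precede the annotated exon are printed. EGR4 held 2 cores and 2 matches to the κB site, which 6.88% of all promoters held. The 153 bases nearest this EGR4 start lie within its own annotated exons. They hold the κB matches, which begin 152 and 91 bases before the start, and the core that begins at 109, whereas the core at 177 precedes the exon. IER2 held 1 core. None of the motifs searched was found before the 2 starts read for NR4A1 or the start read for IER5. For NR4A1 the windows were 52022582 to 52022831 and 52037465 to 52037714, and no start further into the gene was searched. The full CREB element, the AP-1 site, the EGR site and the NR4A site were not found in the windows of any of the 7 genes. These are matches of letters in a short window, and EGR3, NR4A2 and IER3 were not searched. Set beside the levels, EGR1 had 262 to 828 reads in each library, whereas EGR2 and NR4A3 had 55 and 15 reads in all 12 libraries together.

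IER3 had the highest mean of the members in every group, though with DMSO it lay within the spread of IER2 (1006 ± 167 and 973 ± 168 normalized reads, SD, n = 3 each). IER3, also called IEX-1, is a stress-inducible protein that affects survival and a known target of NF-κB, and it lies on the minus strand of chromosome 6 (30743199 to 30744548). It had 8139, 9203 and 9343 normalized reads in the TSZ libraries, against 1023, 831 and 1165 in the DMSO libraries. The rise was 8.90-fold (7.51 to 10.5), with a log2 fold change of 3.15 (SE 0.11, adjusted p = 1.9e-10). With TSZ+Nec-1s it fell to 1895, 1968 and 2055, lower than with TSZ by a log2 fold change of -2.17 (SE 0.11, adjusted p = 6.8e-09) and higher than with DMSO by 1.98-fold (adjusted p = 9.1e-05). With TNFα alone IER3 had 2509, 2800 and 2727 normalized reads, 2.68-fold over DMSO (2.25 to 3.19, adjusted p = 7.4e-06), the largest fold change that TNFα alone gave among the members. TSZ+Nec-1s lay below TNFα in every library, with a log2 fold change of -0.44 (SE 0.11) and an adjusted p of 0.084. This difference was called in the fit without TSZ library a, TNFα library a and DMSO library b (log2 fold change -0.49, adjusted p = 9.6e-07), and when DMSO library b or DMSO library c was left out (-0.44 each, adjusted p = 0.0085 and 0.048). In this comparison the first of these fits called 22.1% of all genes higher and 19.1% lower, against 1.09% and 0.256% with all 12 libraries. The shares were 5.71% and 2.34% without DMSO library b, and 1.21% and 0.273% without DMSO library c. The exons of IER3 share 38.9% of their bases with antisense genes, 32.6% with IER3-AS1 and 6.3% with HCG20. Since the counting did not use strand, reads of these genes cannot be told apart there. Whether such reads were counted for IER3 depends on the authors' gene annotation and was not tested.

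IER5 and IER2 had smaller fold changes with TSZ than IER3. IER5, a regulator of the heat shock factor HSF1 (plus strand of chromosome 1, 181088700 to 181092900), had 672, 796 and 705 normalized reads in the TSZ libraries, against 201, 155 and 229 in the DMSO libraries. The groups lay far apart, with a 3.75-fold rise (3.05 to 4.62) and a log2 fold change of 1.91 (SE 0.14, adjusted p = 1.6e-07). With TSZ+Nec-1s it had 369, 351 and 361 normalized reads, 0.499 of the TSZ level (adjusted p = 4.1e-05) and 1.87-fold over DMSO (adjusted p = 0.00093). With TNFα alone IER5 had 275, 311 and 328, 1.58-fold over DMSO (adjusted p = 0.022). This call was lost without DMSO library a (log2 fold change 0.69, adjusted p = 0.069), TNFα library b (0.64, adjusted p = 0.085) or TNFα library c (0.60, adjusted p = 0.1).

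IER2, a nuclear protein linked to cell motility (plus strand of chromosome 19, 13150411 to 13154911), had 1635, 2069 and 2014 normalized reads in the TSZ libraries, against 1022, 785 and 1111 in the DMSO libraries. It had the smallest rise of the 6, 1.97-fold (1.61 to 2.41), with a log2 fold change of 0.98 (SE 0.14, adjusted p = 6.1e-05). With TSZ+Nec-1s it had 1420, 1400 and 1372 normalized reads, below TSZ by a log2 fold change of -0.44 (SE 0.13, adjusted p = 0.018) and above DMSO by 1.45-fold (adjusted p = 0.02). With TNFα alone it had 1220, 1510 and 1371, 1.41-fold over DMSO with an adjusted p of 0.062, and the libraries did not overlap. Scaled to total reads, the log2 fold change of IER2 was -0.10 for TSZ+Nec-1s over TSZ (adjusted p = 0.47) and 0.13 for TSZ over TNFα (adjusted p = 0.36), so both calls depended on the scaling, and scaled to the upper quartile the adjusted p-values were 0.075 and 0.069. The call of TSZ+Nec-1s over TSZ was lost without TSZ library b or c or TSZ+Nec-1s library c (-0.43 to -0.38, adjusted p = 0.054 to 0.074), that of TSZ+Nec-1s over DMSO without any 1 of the TSZ+Nec-1s libraries (0.53 to 0.55, adjusted p = 0.057 to 0.073) and that of TSZ over TNFα without TNFα library a (0.40, adjusted p = 0.05). For TNFα over DMSO a call was gained without DMSO library c (0.60, adjusted p = 0.035) or TSZ library a (0.50, adjusted p = 0.036). The exons of IER2 share 52.2% of their bases with antisense genes.

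**Figure D2:**
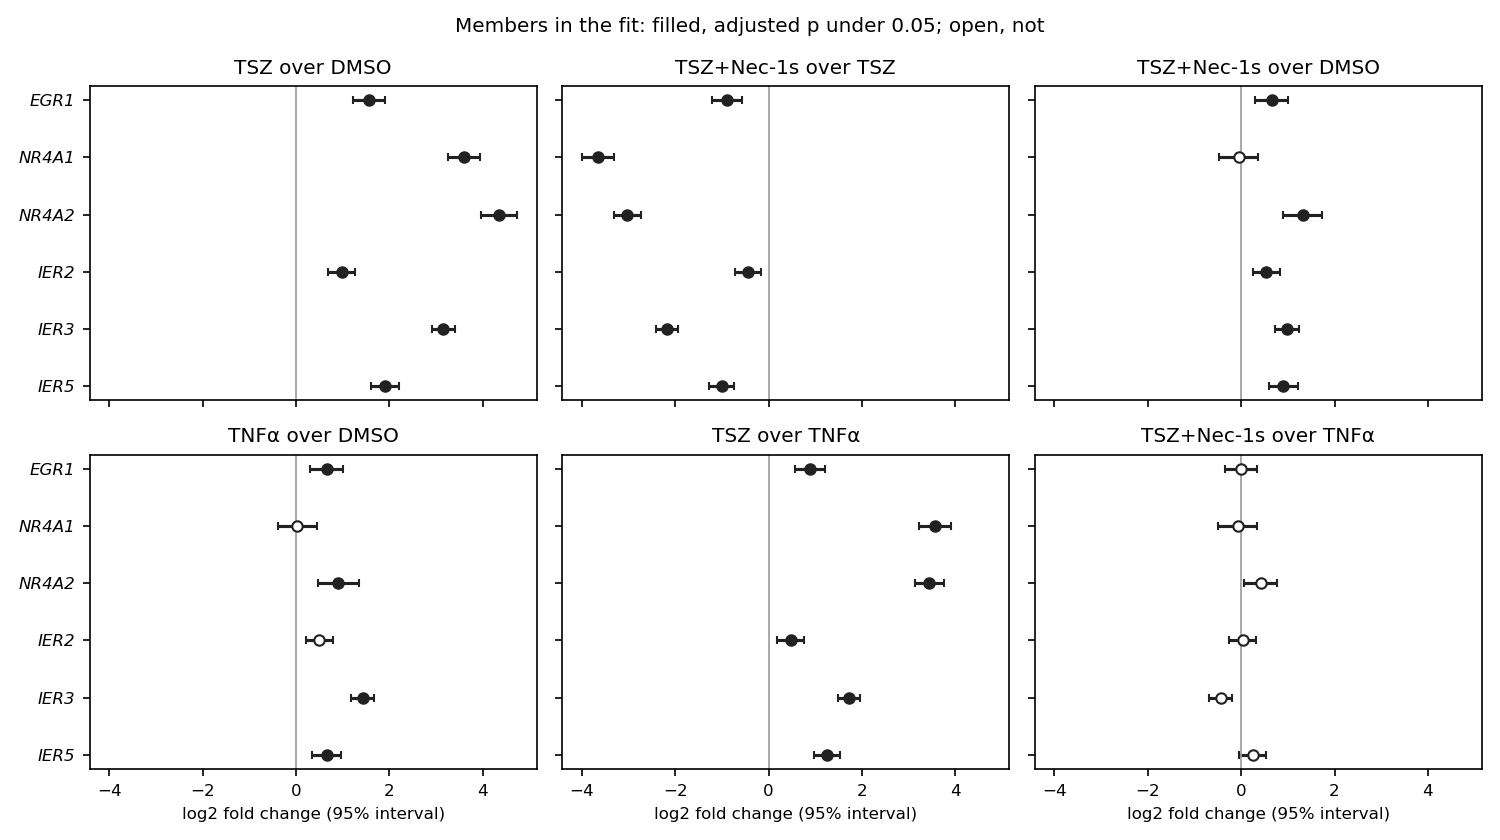
Log2 fold changes of the 6 tested genes (horizontal axis) with their 95% intervals in each of the 6 comparisons, filled where the adjusted p was under 0.05 and open where it was not. NR4A1 lies at 3.60 for TSZ over DMSO and near 0 for TSZ+Nec-1s and TNFα over DMSO, and all points of TSZ+Nec-1s over TNFα are open. All values use the size factors, and the intervals do not cover the choice of scaling.

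The share of the TSZ difference that was seen with TSZ+Nec-1s or with TNFα alone is given for each member as a description. The shares rest on the size factors and were not recomputed with another scaling. Scaled to total reads, TSZ over DMSO had log2 fold changes of 0.56 for IER2, 1.49 for IER5 and 1.14 for EGR1. TSZ+Nec-1s over TSZ had -0.105, -0.67 and -0.56 in the same order, so these shares depend on the scaling. The ranges below cover the leaving out of libraries only. Taking the difference in mean normalized reads between TSZ and DMSO as 100%, a scale on which the comparisons share the DMSO libraries, the difference with TSZ+Nec-1s was -0.3% for NR4A1, with a range of -0.6 to 0.0 when any 1 library was left out. On the same scale it was 7.7% for NR4A2 (7.2 to 8.2), 12.3% for IER3 (11.3 to 13.1), 29.5% for EGR1 (27.2 to 31.8), 31.2% for IER5 (28.5 to 33.5) and 45.5% for IER2 (39.5 to 49.9). The percent is relative to each gene's own TSZ difference, so that NR4A2, with a low percent, still had the largest fold change of TSZ+Nec-1s over DMSO of the 6 genes (2.50). The ranges of EGR1 and IER5 overlap. The difference with TNFα alone was 0.2% of that with TSZ for NR4A1 (-0.2 to 0.9), 4.6% for NR4A2 (3.5 to 5.2), 20.8% for IER5 (17.6 to 23.6), 21.2% for IER3 (20.2 to 22.3), 31.1% for EGR1 (21.9 to 40.6) and 42.3% for IER2 (34.6 to 50.1). NR4A1 and NR4A2 were at the low end and IER2 at the high end of both orders. The ranges of TSZ+Nec-1s and TNFα overlapped for NR4A1, EGR1 and IER2, lay higher with TSZ+Nec-1s for NR4A2 and IER5, and lay higher with TNFα for IER3. In the direct comparison of TSZ+Nec-1s with TNFα none of these 3 differences was called, with adjusted p-values of 0.24 for NR4A2, 0.33 for IER5 and 0.084 for IER3.

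**Figure D3:**
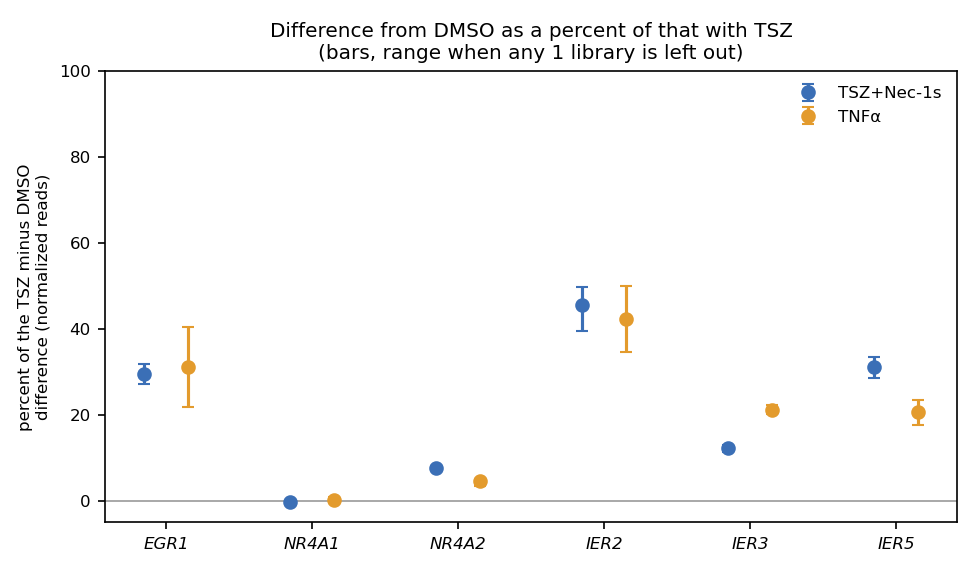
Difference from DMSO with TSZ+Nec-1s (blue) and with TNFα (orange), as a percent of the difference with TSZ in mean normalized reads (vertical axis), for the 6 tested genes. Points are the values from all libraries and bars the range when any 1 library is left out, from about 0 for NR4A1 to 45.5% and 42.3% for IER2. All values use the size factors, and the bars do not cover the choice of scaling.

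The calls with TNFα alone rested on few libraries. Without DMSO library a or without TNFα library c, only 1 of the 6 genes, IER3, was called over DMSO, and in a fit of the TNFα and DMSO libraries alone the count was also 1. Of all genes, 2.18%, 2.07% and 1.75% were called higher in these 3 fits, against 3.12% with all 12 libraries in 1 fit. Without TSZ library a, TNFα library a and DMSO library b together the count was 5, with IER2 added (log2 fold change 0.44, adjusted p = 0.00024), and 7.07% of all genes were called higher. For TSZ+Nec-1s over DMSO, the count was 3 (NR4A2, IER3 and IER5) without TSZ+Nec-1s library a or c, where 4.66% and 4.98% of all genes were called higher. The counts for TSZ over DMSO were 6 in every fit that left out a library, and where 1 library was left out 23% to 28.7% of all genes were called higher.

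Per kilobase of annotated exon, the levels in TSZ libraries were 6589 ± 488 normalized reads for IER3, 619 ± 76.7 for IER2, 288 ± 30.3 for EGR1, 189 ± 13.3 for NR4A2, 172 ± 15.2 for IER5 and 127 ± 18.9 for NR4A1 (SD, n = 3 each). In DMSO libraries they were 746 ± 124 for IER3, 316 ± 54.6 for IER2, 97.9 ± 11.1 for EGR1, 46.3 ± 8.92 for IER5, 10.3 ± 0.490 for NR4A1 and 9.22 ± 0.909 for NR4A2. NR4A2 and IER5 lay within their spread of each other in TSZ libraries, as did NR4A1 and NR4A2 in DMSO libraries. EGR4 came to 8.06 ± 1.71 per kilobase in TSZ libraries and 1.03 ± 1.42 in DMSO libraries, and EGR2, NR4A3 and EGR3 were at or below 2.75 in every group. The exon lengths join all annotated transcripts of a gene, so these levels are lower bounds where short transcripts dominate.

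Other genes of the same pathways were counted by list. Among 11 tested genes of the AP-1 list, of which 8 encode FOS and JUN proteins and ATF3, which pair on AP-1 sites, and 3 the related small MAF proteins, all 11 rose with TSZ over DMSO (25.9% of all genes), with a median log2 fold change of 3.71, against -0.02 over all genes. The largest rises were those of ATF3 (log2 fold change 7.0, adjusted p = 6.9e-11), FOSB (6.82, adjusted p = 1.5e-09) and JUN (4.42, adjusted p = 7.3e-11). Among 31 further immediate early genes, TSZ raised 29 over DMSO (median 2.61) and lowered none by limma (none at an unadjusted p under 0.05), and scaled to total reads 27 were higher and 1 lower. GEM and KLF2 passed the filter through the TSZ libraries only and so had to differ, and of the other 29 genes 27 were higher (median 2.60). GEM, which encodes a GTPase related to RAS, had 1054 ± 111 normalized reads with TSZ and 1.36 ± 0.651 with DMSO. The largest rises among the others were those of the MAPK phosphatase DUSP1 (6.71) and the transcriptional repressor BHLHE40 (6.05). Of the EGR, NR4A and IER genes, NR4A2 at 4.35 lay above both list medians and EGR1, IER2 and IER5 lay below both. With TSZ+Nec-1s over TSZ, 11 of 11 genes of the AP-1 list and 28 of 31 other immediate early genes were lower (26 of 29 without GEM and KLF2), against 22.6% of all genes. With TNFα over DMSO, 4 of 11 and 9 of 31 were higher, against 3.12% of all genes, with medians of 0.71 and 0.33.

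The lists of SRF, CREB and MAPK genes, of which the CREB list holds targets as well as regulators, had smaller median changes, and their counts depended on the scaling. Over all genes, TSZ over DMSO was called higher for 25.9% and lower for 24.2%, and scaled to total reads for 14.1% and 48.5%. Of 6 genes of SRF and its partners, TSZ raised 3 over DMSO and lowered 1, with a median log2 fold change of 0.65, and scaled to total reads 1 was higher and 1 lower. SRF itself had 1457 ± 242 normalized reads with TSZ and 662 ± 99.1 with DMSO (log2 fold change 1.13, adjusted p = 1.8e-05). The coactivator MKL1 (0.67) and the ternary complex factor ELK1 (0.63) rose too, whereas MKL2 fell (-0.73, adjusted p = 0.0037). Scaled to total reads, MKL1 (0.25, adjusted p = 0.15) and ELK1 (0.21, adjusted p = 0.12) were not called. Of 13 tested genes of CREB, its coactivators and targets, 10 were higher and none lower by limma (1 lower at an unadjusted p under 0.05), with a median of 0.66, led by the clock gene PER1 (3.40), CREB5 (2.31) and the phosphodiesterase PDE4D (2.25), and 5 were higher and 1 lower scaled to total reads. Of 19 tested MAPK cascade kinases, 9 were higher and 2 lower (median 0.33), against 6 and 5 with a median of -0.08 scaled to total reads and 7 and 4 with a median of 0.16 scaled to the upper quartile. MAP2K3, a kinase that activates p38, had the largest rise (1.88, adjusted p = 1.1e-07), followed by BRAF (1.38) and MAPK8 (0.92), which encodes JNK1, while MAPK9 (-0.66) and MAPK14 (-0.56), which encode JNK2 and p38α, fell. With TNFα over DMSO none of the 19 kinases and none of the 6 SRF genes was called by limma, in a comparison that called only 3.12% of all genes higher and 1.08% lower. At an unadjusted p under 0.05 in the same fit, 2 kinases were higher and 2 lower and 1 SRF gene was higher.

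**Figure D4:**
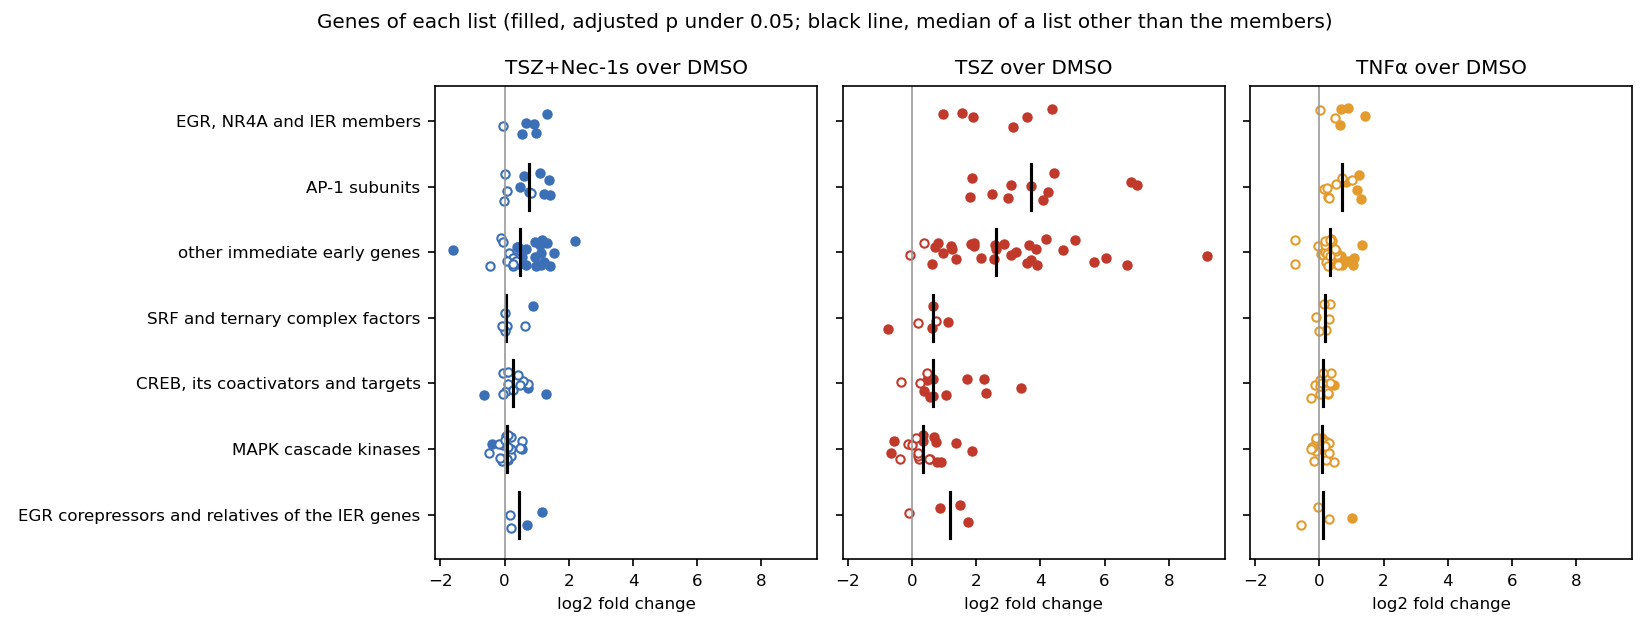
Log2 fold change over DMSO (horizontal axis) of every tested gene of the 7 groups of genes (rows) with TSZ+Nec-1s, TSZ and TNFα, filled where the adjusted p was under 0.05. Black lines mark the medians of the lists other than the members, which with TSZ were 3.71 for AP-1 subunits, 2.61 for other immediate early genes and 0.33 for MAPK cascade kinases.

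NAB1 and NAB2 encode the corepressors that bind EGR proteins and limit their activity, and NAB2 is itself an EGR1 target. NAB2 averaged 803 ± 90.5 normalized reads with TSZ and 289 ± 63.5 with DMSO (SD, n = 3 each), and its log2 fold change was 1.49 (SE 0.15, adjusted p = 4.7e-06). NAB1 had 1137 ± 239 with TSZ and 341 ± 89.2 with DMSO (1.75, SE 0.17, adjusted p = 3.2e-06). Both were lower with TSZ+Nec-1s than with TSZ, by a log2 fold change of -1.32 for NAB2 (adjusted p = 1.7e-05) and -1.06 for NAB1 (adjusted p = 0.00022). NAB1 with TSZ+Nec-1s was still above DMSO (0.69, adjusted p = 0.023), and neither was called with TNFα over DMSO, with log2 fold changes of -0.04 for NAB2 and 0.29 for NAB1.

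For each tested member, the genes with the most similar pattern were those with the smallest root mean square difference of the 3 log2 fold changes over DMSO (TSZ+Nec-1s, TSZ and TNFα), among genes with a mean of at least 50 normalized reads. For NR4A1 they were IRS2 (0.138), ZFP36 (0.208) and KLF9 (0.221). For NR4A2 they were KLF4 (0.127), ISG20 (0.185) and C3orf52 (0.248). For IER3 they were LOC284454 (0.206), JUNB (0.272) and TICAM1 (0.293). IER5 was nearest to LOC389602 (0.088), TGFB1 (0.090) and RAB22A (0.091). EGR1 was nearest to ST3GAL4 (0.049), MAP7D1 (0.052) and RRAS (0.060), and IER2 to ARHGEF2 (0.027), PLEK2 (0.033) and USP54 (0.066). The differences were smaller for EGR1 and IER2 than for NR4A1, NR4A2 and IER3. Of these 18 genes, JUNB stands in the list of AP-1 subunits, and ZFP36 and KLF4 stand in the list of other immediate early genes. IRS2, the nearest to NR4A1, had log2 fold changes of -0.16 with TSZ+Nec-1s, 3.46 with TSZ and -0.13 with TNFα.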

How the data were processed

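RNA of HT-29 cells was sequenced in 12 libraries, grouped by their labels. The paper names Trizol and a VAHTS kit, whereas the labels give an NEB Ultra kit and RNAiso Plus. Alignment to hg38 was done by the authors with STAR, and reads were counted per gene with HTSeq in the intersection-strict mode without strand, and the submitters' processing notes name these tools and DESeq without versions. The 6 deposited tables compare pairs of groups. The deposited signal used here is, for each group, the average of DESeq-scaled counts, and the fold change and p-value columns, which hold the authors' own comparisons, were not used.

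Since such an average adds up 3 whole numbers of reads over their size factors, the reads of each library were solved from the means. Size factors recomputed from these reads differed by at most 0.0016 as a relative difference, and the reads of 15626 to 15843 genes per group had 1 whole-number solution, of 15664 to 15850 with a mean above 0, while 41 genes could not be solved in some group. The depth was 8855796 to 12720317 estimated reads per library, and exact (Clopper-Pearson) 95% intervals cover counting error only. limma 3.58.1 in R 4.3.3 with voom weights was fitted to the 12 libraries in 4 groups over the 11717 genes that averaged at least 10 normalized reads, with Benjamini-Hochberg adjustment over all of them. The recovery and the fit were tested on simulated data. The other steps used scipy 1.17.1, pandas 2.3.3, matplotlib 3.10.9 and numpy 2.4.6 under Python 3.11.15. GENCODE gave coordinates and exon lengths, and RefSeq gave promoters.

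The alternatives were scaling to total reads or to the upper quartile, no filter or a mean of at least 50, limma without voom on log2 values with a pseudocount of 1 or 5, only the 2 groups compared, a quality weight per library, removal of the GC trend, leaving out TSZ library a, TNFα library a and DMSO library b together and leaving out each library. The members and lists were chosen with earlier results of these data known. All members are named, and from each pathway list at most the 3 largest rises and 2 largest falls called between TSZ and DMSO, besides NAB1, NAB2, IER5L and IER3IP1. For each tested member the 3 genes of most similar pattern are named. KLF2, ITGAM and CD14 were named after their values were seen.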

Additional observations from a re-analysis of the deposited data

How the results depend on the processing

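Of 792 values of the 6 tested genes under 22 alternatives, 731 kept their direction and their side of the threshold, 34 lost a call, 12 gained one and 15 changed sign. All sign changes were in values not called to begin with. For NR4A1 with TNFα over DMSO the log2 fold change was -0.048 with the GC trend removed, -0.011 with quality weights, -0.042 scaled to total reads, -0.067 without TSZ library a, TNFα library a and DMSO library b and -0.040 to 0.142 leaving out 1 library. For NR4A1 with the GC trend removed it was 0.044 for TSZ+Nec-1s over DMSO and 0.092 over TNFα. For TSZ+Nec-1s over TNFα, EGR1 had 0.157 with the GC trend removed, 0.016 without the 3 libraries and -0.178 to 0.153 leaving out 1 library, and IER2 had -0.042 without the 3 libraries and -0.042 to 0.112 leaving out 1 library.

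The number of members called for TSZ+Nec-1s over DMSO was 3 to 5 when 1 library was left out, and for TNFα over DMSO it was 1 to 5, and 1 with only the 2 groups compared. For TSZ+Nec-1s over TNFα it was 0 to 1 leaving out 1 library, and 1, IER3 each time, with the GC trend removed, with only the 2 groups compared, with quality weights, scaled to total reads and without the 3 libraries. In the same order these 5 fits called 3.26%, 17%, 19.9%, 1.09% and 22.1% of all genes higher. They called 1.29%, 9.84%, 15.4%, 0.41% and 19.1% lower, against 1.09% higher and 0.256% lower in the main fit. The cause of these differences was not tested. Without the filter 7 members were called higher for TSZ over DMSO, EGR4 being added, and 18.6% of all genes were called higher.

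Over all genes, quality weights called 6891 genes for TSZ+Nec-1s over DMSO, against 1511, and 2135 for TNFα over DMSO, against 492. The fit without the 3 libraries called 4831 for TSZ+Nec-1s over TNFα, against 158, and 50 to 943 were called leaving out 1 library. Scaled to total reads, 4940 genes were higher and 1370 lower for TSZ+Nec-1s over TSZ, against 2320 and 2643, 1480 and 4959 for TSZ over TNFα, against 2659 and 2534, 723 and 1261 for TSZ+Nec-1s over DMSO, against 837 and 674, and 329 and 225 for TNFα over DMSO, against 365 and 127. With only the 2 groups compared, 231 were called for TNFα over DMSO. Leaving out 1 library, 294 to 597 genes were called for TNFα over DMSO and 853 to 3917 for TSZ+Nec-1s over DMSO. No paired analysis was possible because the recovered libraries carry no replicate number. EGR2, EGR3, EGR4 and NR4A3 had at most 20 reads in any library, and without the filter no difference of these genes was called other than that of EGR4 for TSZ over DMSO.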

Other observations

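2 relatives carry the IER name. IER5L, a paralog of IER5, had 482 ± 23.4 normalized reads with TSZ+Nec-1s, 390 ± 71.3 with TSZ, 433 ± 88.4 with TNFα and 215 ± 39.3 with DMSO (SD, n = 3 each). It was higher than with DMSO in all 3 treated groups, with log2 fold changes of 1.18 with TSZ+Nec-1s (SE 0.18, adjusted p = 0.00087), 0.86 with TSZ (SE 0.19, adjusted p = 0.0024) and 1.0 with TNFα (SE 0.19, adjusted p = 0.0071). TSZ+Nec-1s over TSZ was 0.32 (SE 0.17, adjusted p = 0.16) and TSZ over TNFα was -0.14 (SE 0.18, adjusted p = 0.55), so neither was called. Scaled to total reads, both were called for IER5L, with log2 fold changes of 0.65 (adjusted p = 0.0058) and -0.48 (adjusted p = 0.029), whereas TSZ over DMSO was not (0.45, adjusted p = 0.05). IER3IP1, an endoplasmic reticulum protein named for its interaction with IER3, had 225 ± 70.2 normalized reads with TSZ and 256 ± 134 with DMSO, and none of 6 comparisons called it by limma (1 at an unadjusted p under 0.05), with adjusted p-values of 0.23 to 0.81.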
